A study of Sus scrofa with 6 samples.

Results

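The hypothalamus of sows in anestrus was compared with that of sows in estrus, gene by gene. RNA had been sequenced from hypothalamus, pituitary and ovary of Landrace x Large White sows that had borne 1 litter (primiparous sows), some in estrus and some in anestrus, which the labels ascribe to inactive ovaries. For each state 3 sows are named in the labels, and whether their RNA was pooled is not said. There are 6 libraries, 1 for each tissue and state, and the 2 hypothalamus libraries are used here. All 19465 genes of the hypothalamus table were taken, with no selection on their values. The estrous library held 15314325 reads assigned to genes and the anestrous library 15812041. With 1 hypothalamus library per state there is no replicate check, and the states cannot be tested within the hypothalamus. A gene called "higher" or "lower" is so in the anestrous library, and each 95% interval, taken from the reads, covers counting error only.

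The hypothalamus joins the brain to the endocrine system. GnRH neurons, driven by kisspeptin, set the release of gonadotropins from the pituitary, and vasopressin and oxytocin neurons of the supraoptic and paraventricular nuclei send their axons to the posterior pituitary. The arcuate nucleus holds neurons that make POMC, AGRP, NPY, GHRH and kisspeptin, and the lateral hypothalamus holds those that make orexin and melanin-concentrating hormone. Ovarian steroids act on many of these neurons.

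The label of the tissue was checked against its defining genes. NKX2-1, a homeobox factor of the developing hypothalamus, gave 646 reads in estrus and 568 in anestrus. HCRT and PMCH, the peptide genes of the lateral hypothalamus, were read strongly in both libraries, whereas HCRT gave at most 0.941 RPM (reads scaled to 1000000 assigned reads of a library) and PMCH at most 0.403 in any pituitary or ovary library. Hormone genes of the anterior pituitary were present as well, at nearly equal levels in both libraries: PRL gave 1479 and 1598 reads, GH1 656 and 647, and CGA 176 and 153. Markers of thalamus and of choroid plexus were also read and are described with the genes of brain regions. In bulk tissue, fewer cells of a type and less RNA per cell cannot be told apart.

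Over a floor of 50 on the mean normalised read count there were 11390 genes. Of these, 147 (1.29%) were at least 2-fold higher in the anestrous library and 119 (1.04%) at least 2-fold lower, by a log2 fold of at least 1 in size after adding 1 to each count. The distribution was narrow: the lower and upper quartiles of the log2 fold were -0.18 and 0.19, and the median was 0.01. Genes at 2-fold were a larger share of weakly expressed genes, 7.22% of the 1441 genes with a mean from 50 to 100 and 0.849% of the 2591 genes from 1000 to 5000. In the weak class 48 were higher and 56 lower, while in the strong class 16 were higher and 6 lower. With equal library totals in place of the authors' scaling, every log2 fold moved by about -0.09, and the counts became 113 higher and 167 lower (40.4% of the 2-fold genes higher, against 55.3%). Genes near the threshold, PMCH, TUBA1B, ND5, CALB1, HCN4, KCNA4 and ZBTB16 among them, were then under 2-fold.

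**Figure D1:**
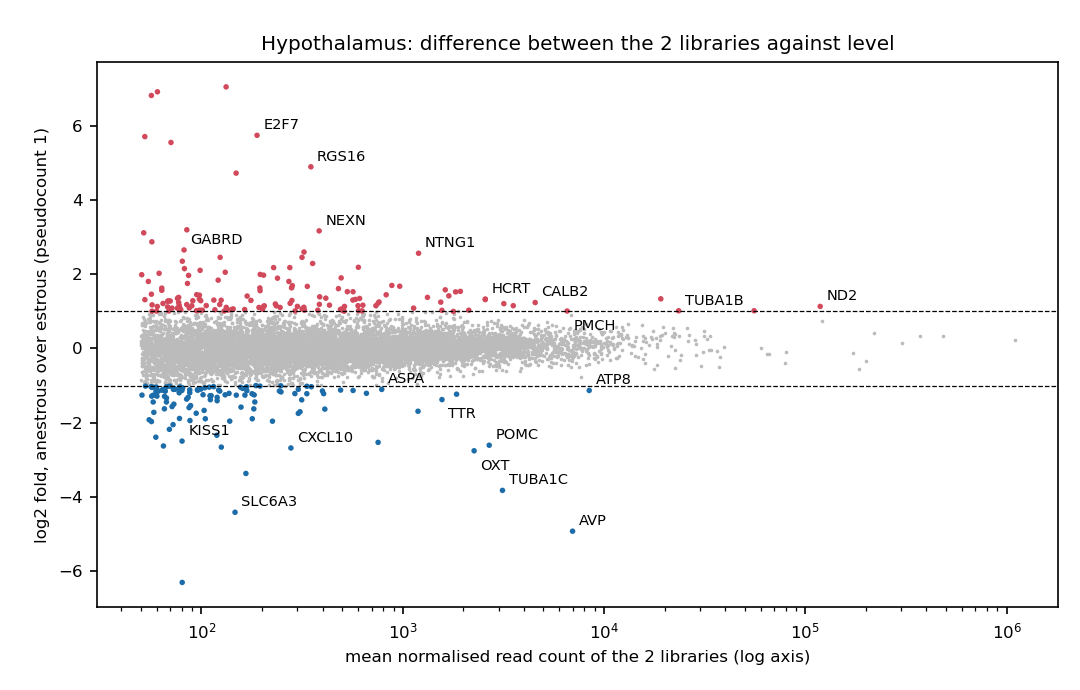
Log2 fold (anestrous over estrous, pseudocount 1) of the 11390 genes over the floor, against their mean normalised read count on a log axis, 1 point per gene. Dashed lines mark 2-fold, red points are the 147 genes higher by that much and blue points the 119 lower. AVP, TUBA1C, OXT and POMC stand out as strongly expressed genes far below the rest, and NTNG1 as one far above.

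Peptide hormone genes of the hypothalamus differed in both directions, with AVP, OXT and POMC lower in anestrus and HCRT and PMCH higher. Of 44 neuropeptide precursors listed, 34 were found by name and 27 had a mean of at least 10, the floor used for gene lists. Of these 27, 8 were at least 2-fold lower, 2 at least 2-fold higher and 17 within 2-fold. Among all 13587 genes over the same floor, 2.61% were 2-fold lower and 1.99% were 2-fold higher. By sign, 6769 of the 13587 had a log2 fold above 0 and 6818 below 0. The counts of every gene list below are to be read beside these shares. The median log2 fold of the list, -0.22, changed sign with a floor of 50 (0.04), since several of the lower peptide genes had few reads. The 7 members under the floor had at most 12 reads in either library.

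AVP, the precursor of vasopressin, had the lowest ratio of the list, with 13729 reads in estrus and 435 in anestrus (30.6-fold lower, interval 27.8 to 33.7). OXT, the oxytocin precursor, gave 4007 and 572 reads (6.79-fold lower). CRH and TRH, peptide genes of the paraventricular nucleus grouped with AVP and OXT after the values were seen, did not differ in this way. What underlies the AVP and OXT values was not tested. CRH, the precursor of corticotropin-releasing hormone, gave 91 and 73 reads, a ratio whose interval held equality (1.21-fold lower, 0.878 to 1.67). TRH, the precursor of thyrotropin-releasing hormone, gave 390 and 528 reads and was 1.40-fold higher (1.22 to 1.60). Of the factors on which neurons of that nucleus depend, OTP was near equality at 99 and 88 reads. SIM1 gave 28 and 20 reads, which is too few to show a small difference. Granins and peptide-processing enzymes, which work in the secretory granules of peptide neurons, held no 2-fold member among 13 measured (median 0.14). CHGB, a granin, gave 7901 and 9548 reads, and PCSK2, a prohormone convertase, 1360 and 1768.

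All 7 arcuate peptide genes looked at, a grouping made after the values were seen, were lower in the anestrous library. POMC, from which melanocortins and beta-endorphin are cut, gave 4697 and 744 reads (6.12-fold lower, 5.66 to 6.62). KISS1, which encodes kisspeptin, gave 139 and 23 reads (5.86-fold lower, 3.75 to 9.54), and GHRH, the growth hormone-releasing hormone gene, 80 and 12 (6.46-fold lower, 3.50 to 13). AGRP and NPY, the appetite peptides made by one set of arcuate neurons, had 22 reads each in estrus, against 1 and 3 in anestrus. Their intervals were wide, 3.45 to 880 for AGRP and 2.13 to 37.1 for NPY. TAC3 (neurokinin B), which is made together with kisspeptin in many arcuate neurons, was 1.43-fold lower (775 and 524 reads). CARTPT, the CART peptide gene, was 1.30-fold lower (1003 and 747 reads). GNRH1, whose neurons lie mostly outside the arcuate nucleus, gave 70 and 28 reads (2.42-fold lower, 1.54 to 3.9). GAL (galanin), with 354 and 171 reads, just missed the rule (2.01-fold lower without the added count).

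POMC is also the main transcript of pituitary corticotrophs and melanotrophs, so its level was set beside other pituitary hormone genes. The hypothalamic level of PRL, in RPM, was 0.0769% of the pituitary level in estrus and 0.0655% in anestrus, and that of GH1 was 0.0674% and 0.0597%. It was 0.101% and 0.0613% for CGA. FSHB and TSHB had few hypothalamic reads (11 and 10, and 3 and 3), and their shares were 0.145% and 0.0341%, and 0.0697% and 0.142%. For POMC the share was 0.645% and 0.249%, above that of the other 5 genes in both states. Those 5 are genes of the anterior pituitary, so the shares do not cover POMC from melanotrophs. The source of the POMC reads was not tested. POMC was itself lower in the anestrous pituitary, where it went from 47518 to 18906 RPM (log2 fold -1.21). TBX19, a factor of POMC-making pituitary cells, had 24 and 9 reads.

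The 3 peptide genes grouped as lateral hypothalamic, also after the values were seen, were higher, 2 of them by 2-fold (1 with equal totals). HCRT, the orexin precursor, gave 1483 reads in estrus and 3627 in anestrus (2.52-fold higher, 2.38 to 2.68), and PMCH, the melanin-concentrating hormone precursor, 4420 and 8633 (2.02-fold higher). NTS (neurotensin) gave 305 and 510 reads (1.73-fold higher, 1.49 to 2.0). Peptides of wider distribution were nearly level: SST (somatostatin) gave 1064 and 1180 reads, PENK (enkephalin) 1168 and 1318, ADCYAP1 (PACAP) 872 and 894, TAC1 (substance P) 486 and 450, and AGT, the astrocytic angiotensinogen gene, 8425 and 8400.

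**Figure D2:**
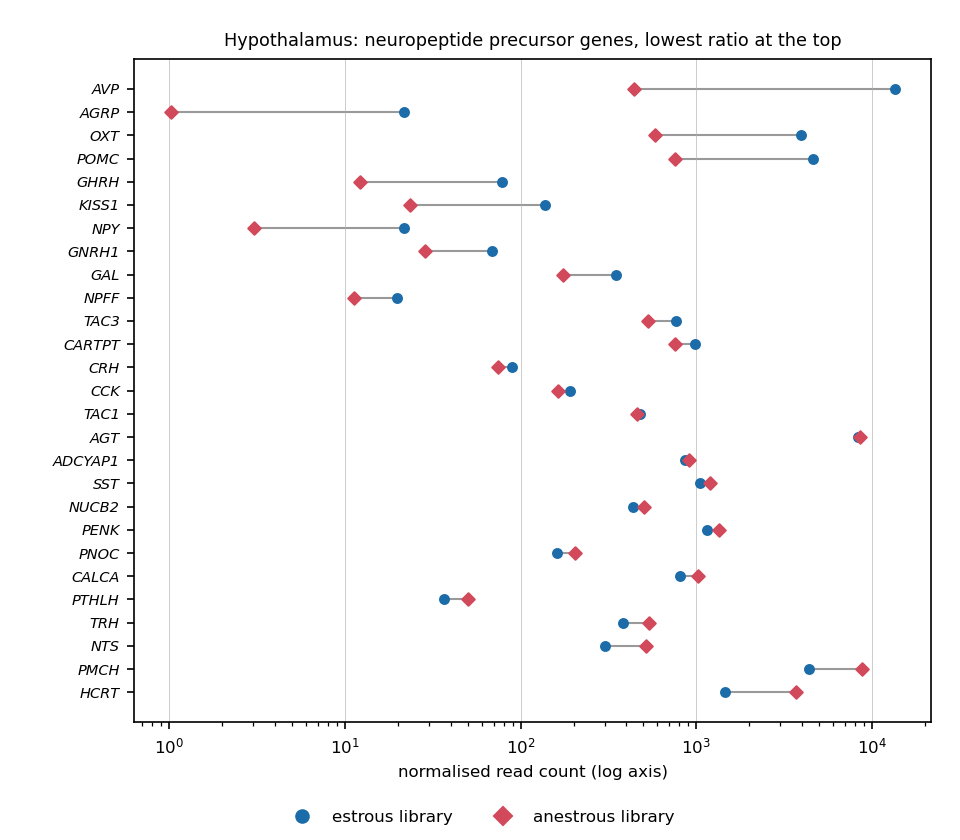
Normalised read count in the estrous (blue circle) and anestrous (red diamond) library for the 27 neuropeptide precursor genes with a mean of at least 10, on a log axis, ordered from the lowest ratio to the highest. AVP, AGRP, OXT, POMC, GHRH, KISS1, NPY and GNRH1 were at least 2-fold lower in anestrus, HCRT and PMCH at least 2-fold higher.

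Most receptor genes for these peptides and for metabolic hormones were within 2-fold. Of 38 receptor genes found, 30 were over the floor, with 3 of them 2-fold higher, 1 of them 2-fold lower and 26 within 2-fold (median 0.17). In percent, 10% were 2-fold higher and 3.33% lower, against 1.99% and 2.61% of all genes. VIPR2, a receptor for VIP and PACAP, gave 53 and 141 reads (2.75-fold higher, 1.99 to 3.84). CRHR2, a receptor for urocortins, gave 19 and 47 reads, and OPRM1, the mu opioid receptor, 9 and 19 with an interval that held equality (0.939 to 5.47). GLP1R, the receptor for glucagon-like peptide, gave 39 and 18 reads (2.1-fold lower, 1.17 to 3.9). KISS1R had 19 and 14 reads and TACR3, the neurokinin B receptor, 114 and 68. MC4R, the melanocortin receptor of appetite control, gave 52 and 72 reads (interval of the ratio 0.987 to 2.08). MCHR1 and HCRTR1, receptors for melanin-concentrating hormone and orexin, gave 114 and 144 and 88 and 84 reads. OXTR had 12 and 14 reads, which is too few to show a small difference.

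Steroid receptor genes were within 2-fold. Of 19 receptor, cofactor and neurosteroid enzyme genes, all found and all over the floor, 18 were within 2-fold, with a median log2 fold of -0.13. By sign, 11 were below 0 and 8 above (15 and 4 with equal totals). ESR1, the estrogen receptor alpha gene, gave 220 and 168 reads (1.27-fold lower, 1.03 to 1.56) and occurs at more than 1 ID in the table, so reads may be divided between copies. PGR gave 14 and 12 reads and ESR2 16 and 10, which is too few to show a small difference. NR3C1, the glucocorticoid receptor gene, gave 598 and 488 reads. The exception was CYP19A1 (aromatase), which makes estrogens from androgens, with 23 and 74 reads (3.32-fold higher, 2.06 to 5.56). In the ovary the same gene went from 581 to 69.8 RPM, so the libraries of the 2 tissues differed in opposite directions, a difference that was not tested.

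Among 16 measured genes of puberty and GnRH neuron development, 1 was 2-fold lower and the other 15 were within 2-fold (median -0.09). The lower one was SOX10, a factor of oligodendrocytes and neural crest, at 92 and 22 reads (4.05-fold lower). CHD7, a chromatin remodeller, gave 918 and 553 reads. In the glucocorticoid-responsive list, 1 of 9 was 2-fold higher, ZBTB16 with 132 and 268 reads, and FKBP5, a chaperone of the glucocorticoid receptor, gave 543 and 966 (1.84-fold higher, 1.65 to 2.04), while TSC22D3 was level at 5945 and 5827.

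Transcription factors that lay out the hypothalamus were mostly within 2-fold, with more of them below 0 than above. Of 26 found, 22 were over the floor. Of these, 3 were 2-fold lower and 19 within 2-fold (median -0.12). By sign, 14 were below 0 and 8 above (6 with equal totals), the highest at a log2 fold of 0.88. ISL1, which arcuate POMC neurons need, gave 107 and 50 reads (2.07-fold lower, 1.47 to 2.96), SIX6 32 and 11, and LMX1A 20 and 7. TBX3, a factor of arcuate neurons, gave 378 and 190 reads and was just under the threshold (1.93-fold lower, 1.61 to 2.31). Some factors of other domains did not differ much: LHX1 gave 225 and 242 reads, FEZF1 131 and 142, NKX2-2 228 and 218, and BARHL1 34 and 35.

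Markers of thalamus, the region above the hypothalamus, were higher. All 15 found were over the floor, and 7 were at least 2-fold higher, none 2-fold lower and 8 within 2-fold, with a median log2 fold of 0.75. NTNG1, a netrin-G that thalamic axons carry, gave 350 and 2020 reads (5.96-fold higher, 5.32 to 6.69). TCF7L2, a factor of thalamic neurons, gave 211 and 769 reads (3.76-fold higher, 3.23 to 4.40). GBX2, needed by the developing thalamus, gave 20 and 80 reads, LHX9 12 and 78, ZIC1 83 and 369, ZIC4 43 and 110, and SYNPO2 122 and 417. The other way went 2 of the 15, PRKCD with 640 and 429 reads (1.45-fold lower, 1.28 to 1.64) and CNIH3 with 304 and 224 (1.31-fold lower, 1.10 to 1.57). RAMP3, at 2741 and 2950 reads, was 1.11-fold higher. Striatal markers held no 2-fold member among 9 (median 0.24). Of 6 cortical and hippocampal markers, 1 was 2-fold lower, FEZF2 with 22 and 5 reads, while CUX2 gave 373 and 695. The part that the thalamic share of the tissue has in the other results was not tested.

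Dopamine genes differed in 1 strong case. SLC6A3, the gene of the dopamine transporter, had 286 estrous and 12 anestrous reads (23.1-fold lower, 13 to 45.2). SLC18A2, the vesicular transporter of all monoamine neurons, was near equality at 317 and 282 reads, and DDC, which makes dopamine from DOPA, gave 317 and 224. ALDH1A1, an enzyme of a subset of midbrain dopamine neurons, gave 278 and 149 reads (1.81-fold lower). FOXA2 gave 20 and 9 reads, and EN1 and EN2 gave 11 reads each in estrus and 0 in anestrus, at least 3.55-fold lower against a floor of 3 reads. EN1, EN2, FOXA2 and LMX1A are textbook factors of midbrain dopamine neurons, and EN1 and EN2 were chosen after their values were seen. Of 15 measured genes of the list, 2 were 2-fold lower, 1 was 2-fold higher and 12 within 2-fold. The higher one was the receptor gene DRD5, at 11 and 37 reads. TH was not found by name and was not analysed here.

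Genes of GABA signalling were higher as a group, as were neuronal genes in general (median of the pan-neuronal list 0.44). Whether the shift is particular to GABA genes was not tested. Of 20 found, 19 were over the floor, and 17 of these had a log2 fold above 0 (15 with equal totals, median 0.50). Those at least 2-fold higher were 3 (15.8%, against 1.99% of all genes), and none was 2-fold lower. GABRD, the delta subunit of extrasynaptic GABA-A receptors, gave 22 and 140 reads (6.57-fold higher, 4.17 to 10.8). GABRA5, an alpha subunit, gave 928 and 2142 (2.38-fold higher, 2.20 to 2.58), and GABBR2, a subunit of the GABA-B receptor, 1948 and 4370 (2.32-fold higher). GABRA4 was just under the threshold at 1275 and 2470 reads. The vesicular transporter SLC32A1 gave 851 and 1470 reads (1.78-fold higher, 1.64 to 1.94), and the synthetic enzyme genes GAD1 and GAD2, named after their values were seen, gave 3083 and 3935 and 2794 and 3825. GABRE went the other way at 702 and 490 reads.

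Of 26 measured genes of glutamate signalling, none was 2-fold different, and 20 were above 0 (17 with equal totals, median 0.18). The metabotropic receptor gene GRM4 gave 336 and 594 reads (1.82-fold higher, 1.59 to 2.09). SLC17A6, the vesicular glutamate transporter of hypothalamic and thalamic neurons, gave 1476 and 2131 reads (1.49-fold higher, 1.39 to 1.59). Among 7 acetylcholine genes, CHRNA5, a nicotinic receptor subunit, gave 1 read in estrus and 46 in anestrus, a ratio of 47.5 with an interval of 8.11 to 1916, and CHRNB2 gave 2203 and 3462 reads.

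Ion channel and calcium-binding genes of neurons were also higher at the median, beside 0.44 for the pan-neuronal list. Of 23 sodium, calcium and HCN channel genes measured, 3 were at least 2-fold higher, none lower and 19 above 0 (17 with equal totals, median 0.47). CACNA1G, the T-type calcium channel of burst-firing neurons, gave 935 and 2429 reads (2.68-fold higher, 2.49 to 2.89). SCN4B, a sodium channel subunit, gave 459 and 1041, and HCN4, a pacemaker channel, 49 and 102. Of 29 potassium channel genes, 22 were above 0 (19 with equal totals, median 0.46), 2 were 2-fold higher (1 with equal totals) and 1 was 2-fold lower. Over all genes, 1.99% were 2-fold higher and 2.61% lower. KCNC2, a channel of fast-spiking neurons, gave 239 and 712 reads (3.07-fold higher, 2.65 to 3.58), and KCNA4 46 and 91. All 10 measured calcium-binding genes had a log2 fold above 0, HPCA at 545 and 531 reads being below 0 with equal totals, and 5 were at least 2-fold higher (median 0.81). CALB2 (calretinin) gave 2747 and 6294 reads, PVALB (parvalbumin) 207 and 435, CALB1 (calbindin) 328 and 668, and CAMK4, a calcium-dependent kinase, 165 and 394. SCGN (secretagogin), a calcium-binding protein gene outside that list, went the other way with 481 and 142 reads (3.28-fold lower, 2.72 to 3.99).

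**Figure D3:**
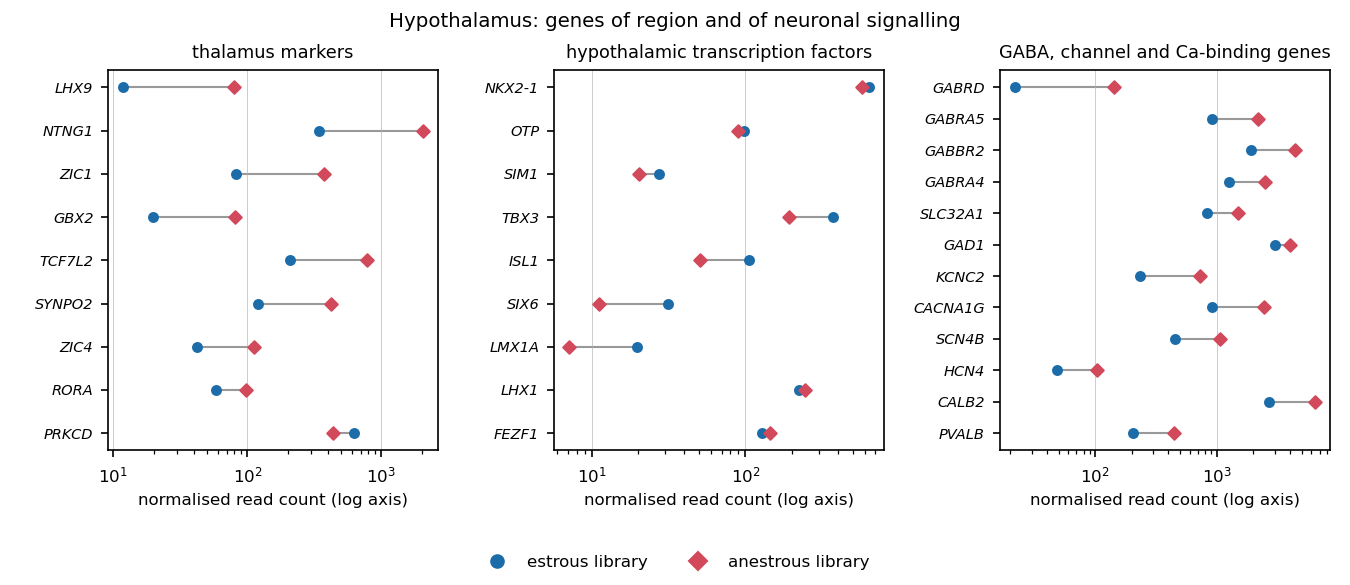
Normalised read count in the estrous (blue circle) and anestrous (red diamond) library, on log axes, for 9 thalamus markers (left), 9 transcription factors of the hypothalamus (middle) and 12 genes of GABA signalling, ion channels and calcium binding (right), all chosen from the fixed lists after their values were seen. Thalamus markers other than PRKCD and all 12 signalling genes were higher in anestrus, while NKX2-1, OTP, LHX1 and FEZF1 were nearly level.

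Neuronal genes in general were higher by less than 2-fold, and most myelin and microglia genes lower. Of 14 pan-neuronal genes, 13 were above 0 and none reached 2-fold (median 0.44). SYT1 and SNAP25, of the vesicle release machinery, gave 9980 and 14591 and 18182 and 25700 reads, and SYP (synaptophysin) 10414 and 14364, while MAP2 was level at 34950 and 33058. The list summed to 10142 RPM in estrus and 12101 in anestrus. All 12 myelin and oligodendrocyte genes were below 0 (median -0.38), and 1 was 2-fold lower, ASPA, which breaks down N-acetylaspartate in oligodendrocytes (1091 and 491 reads). MOBP, a myelin protein gene, gave 7761 and 5550 reads. That list summed to 20440 and 14909 RPM, and none of its measured members was at 0. Oligodendrocyte precursor genes were below 0 in 6 of 7 (median -0.42). Astrocyte genes had a median near 0 (-0.09), but 2 of the strongest were lower: GFAP gave 221980 and 147723 reads (1.46-fold lower) and GLUL (glutamine synthetase) 35694 and 24904.

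Microglia genes were below 0 in 14 of 15 measured (median -0.33). P2RY12, a receptor of resting microglia, gave 1434 and 806 reads (1.72-fold lower, 1.58 to 1.88), and CX3CR1 2941 and 1881. CSF1R, the growth factor receptor on which microglia depend, was the exception at 421 and 1330 reads (3.26-fold higher, 2.92 to 3.65). CSF1R was also 2-fold higher in the anestrous pituitary (log2 fold 1.49) and ovary (3.9). Choroid plexus genes were lower in 7 of 8 (median -0.93), with 2 at 2-fold. TTR, the carrier of thyroid hormone that choroid plexus secretes, gave 2299 and 856 reads (2.60-fold lower, 2.40 to 2.82), and KCNJ13, a channel of that epithelium, 133 and 59. Its factor OTX2 went the other way at 146 and 226 reads. Ciliary genes of ependyma, the lining of the ventricles, were below 0 in 7 of 10 (median -0.49): FOXJ1, the master factor of motile cilia, gave 386 and 188 reads, DNAH11, a ciliary dynein, 163 and 60, and RSPH4A, of the radial spoke, 47 and 16. Tanycyte genes, those of the glia at the floor of the third ventricle, held no 2-fold member among 8 (median 0.07, which turned to -0.02 with equal totals), with VIM at 4688 and 3412 reads and GPR50 at 101 and 177.

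No vessel gene on the lists was 2-fold different. Of 11 endothelial genes 6 were above 0 (4 with equal totals, median 0.02), with CLDN5 at 1148 and 1130 reads. Of 9 mural cell genes 7 were above 0 (median 0.28), with ACTA2, a smooth muscle actin gene, at 411 and 767 reads and DES (desmin) at 117 and 194. Meningeal fibroblast genes were lower at the median (-0.42, 9 genes), with OGN at 677 and 382 reads and COL3A1 at 529 and 318. Of 21 matrix genes, 17 were below 0 (median -0.33), with the gelatinase gene MMP2 at 1038 and 550 reads, FN1 (fibronectin) at 1936 and 1094 and TNC (tenascin C) at 911 and 519. The keratin genes KRT19, at 102 and 18 reads, and KRT8, at 142 and 35, were lower, whereas KRT18 (30 and 37) and EPCAM (64 and 57), both also epithelial, were not. KRT8 and KRT19 were level between the pituitary libraries (log2 folds 0.07 and -0.12).

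**Figure D4:**
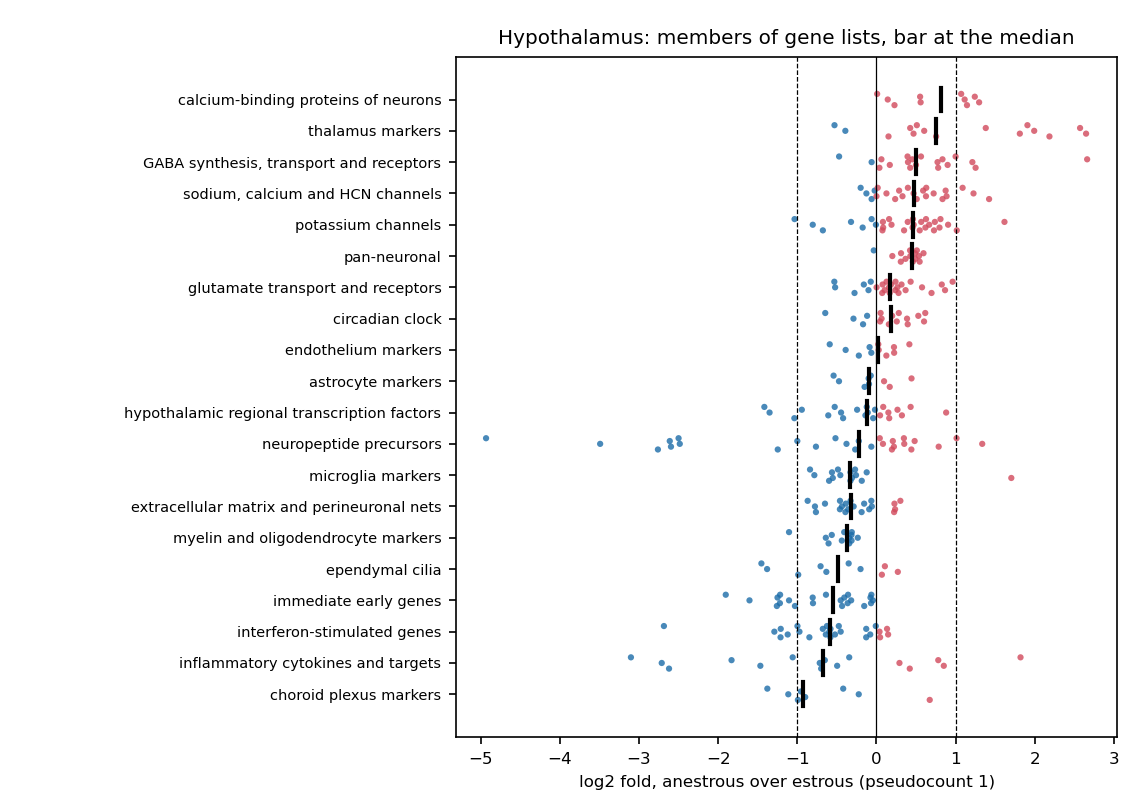
Log2 fold (anestrous over estrous, pseudocount 1) of each member with a mean of at least 10 in 20 gene lists, 1 point per gene, red above 0 and blue below, with a black bar at the list's median and dashed lines at 2-fold. Medians of the neuronal signalling lists lie to the right of 0. Medians of the myelin, microglia, cilia, immediate early, interferon, inflammatory and choroid plexus lists lie to the left. Most of these lists have members on both sides. Genes that 2 lists share appear in both.

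Immediate early genes, which neurons and other cells switch on within minutes of a stimulus, had a log2 fold below 0 in 22 of 22 measured members, and 8 were at least 2-fold lower (median -0.55). Among all 13587 genes over that floor, 6818 were below 0 and 2.61% were 2-fold lower. EGR2 gave 53 and 13 reads (3.95-fold lower, 2.12 to 7.90), EGR1 575 and 239 (2.33-fold lower, 2.0 to 2.72), ATF3 236 and 95, NR4A3 188 and 76, BTG2 475 and 197, IER3 46 and 14, FOSL2 50 and 22 and CYR61 157 and 74. FOS, the member most used to mark active neurons, gave 1194 and 663 reads (1.74-fold lower, 1.59 to 1.92). The list was lower at the median in the other tissues too, so the shift was not particular to the hypothalamus. In the pituitary 16 of 21 measured members were below 0 and 5 above (median -0.32), and in the ovary 13 of 19 were below 0 and 6 above (-0.50). Some members were level, such as DUSP1 at 521 and 489 reads and IER2 at 123 and 113, both named after their values were seen.

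Most inflammatory and interferon genes were lower as well. Of 16 inflammatory genes measured, 11 were below 0 and 5 above, and 6 were at least 2-fold lower and 1 was 2-fold higher (median -0.68). Over all genes, 2.61% were 2-fold lower and 1.99% higher. CCL4, a chemokine gene, gave 52 and 5 reads (10.1-fold lower, 4.05 to 32.3), TNF 53 and 7, IL1A 56 and 8, CXCL2 54 and 14, CCL2 56 and 19, and TNFAIP3, an inhibitor of NF-kappa B signalling, 143 and 66. S100A12, a gene of neutrophils, was higher at 6 and 23 reads. Of 25 interferon-stimulated genes, 21 were below 0 and 5 at least 2-fold lower (median -0.58). CXCL10, which attracts T cells, gave 490 and 73 reads (6.5-fold lower, 5.08 to 8.43), OAS2, an antiviral enzyme, 937 and 392, USP18 195 and 81, GBP1 684 and 304, and CXCL9 57 and 22. MX1, of the same list, was level at 2011 and 2137 reads and was named after its values were seen. IDO1, an interferon-induced enzyme of tryptophan breakdown, had 44 reads in estrus and 0 in anestrus, at least 14.2-fold lower against a floor of 3 reads. Of 8 lymphocyte markers over the floor 3 were 2-fold lower, CD2 at 420 and 189 reads, IL7R at 29 and 6 and CD8A at 27 and 10. That list summed to 52.6 and 29.4 RPM, and the part of lymphocytes in the inflammatory and interferon values was not tested.

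Of the genes with a symbol and a mean normalised count over 1000, 8 were 2-fold lower and 20 were 2-fold higher (9 and 13 with equal totals). The lower ones were AVP, OXT, POMC, TTR, TUBA1C, TMP-SLA-2, ATP8 and RHBDL2, a rhomboid protease gene with 1849 and 553 reads (3.24-fold lower, 2.94 to 3.57). Among the higher ones, SYT7, a calcium sensor of vesicle release, gave 748 and 1888 reads, and SV2B, a synaptic vesicle protein gene, 826 and 2402 (3.00-fold higher, 2.77 to 3.25). SYT12 gave 1208 and 2343 reads, RGS4, a brake on G protein signalling, 2228 and 4812, PTK2B 1045 and 2069, ZDHHC22 1004 and 2834, CCDC136 1492 and 3613, AAK1 735 and 1517 and CIT 1419 and 2816. With equal totals SYT12, PTK2B, AAK1 and CIT were under 2-fold.

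Wide ratios were also found among less abundant genes, although the abundant AVP had a log2 fold of -4.93. C14H10orf116 had a log2 fold of 7.06 (5.49 with a pseudocount of 5), so the size of its difference depends on the pseudocount. RGS16, another brake on G protein signalling, gave 22 and 667 reads (31.3-fold higher, 20.5 to 50.3), E2F7, a cell cycle repressor, 6 and 366 (63.0-fold higher, 28.6 to 173), and NEXN, an actin-binding protein gene, 77 and 682 (9.14-fold higher). Further down, KITLG, the ligand of the KIT receptor, gave 10 and 92 reads, PLXDC1 219 and 973, SHOX2, a homeobox gene, 13 and 99, PLCH2, a phospholipase C gene, 466 and 1450, and SLITRK6 37 and 158. RGS16, E2F7 and NEXN were not higher by 2-fold in the pituitary, but NEXN and RGS16 were hardly read there (means of 9.89 and 2.0). MYBPC3, a myosin-binding protein gene, gave 309 and 28 reads (10.7-fold lower, 7.25 to 16.4), FAM111B 203 and 38, P2RY6, a microglial nucleotide receptor, 287 and 74, GJA9 224 and 55, PRR18 365 and 90 and COLEC11 116 and 24.

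Some ratios depend on how reads are divided between similar genes. TUBA1C and TUBA1B encode nearly identical alpha tubulins and went opposite ways, TUBA1C from 5943 to 404 reads and TUBA1B from 15767 to 30950, so their separate values are uncertain. Their neighbours in the list were within 2-fold, with TUBB3 at 10766 and 13448 reads and ACTB at 23353 and 21835. PPP1R11 had 0 and 119 reads at the ID used and occurs at 2 IDs. TMP-SLA-2, a class I MHC gene with close copies, gave 2639 and 1087 reads, while B2M, the partner of class I molecules, gave 100 and 444.

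Transcripts of the mitochondrial genome took 17.8% of assigned reads in estrus and 20.6% in anestrus. Of its 13 protein genes, a list added after the values were seen, 11 were above 0 (median 0.41). COX1, the gene with most reads in both libraries, gave 1029415 and 1163709, COX3 435195 and 534367, and CYTB 191501 and 246366. The subunit genes of complex I were unequal among themselves: ND2 gave 75360 and 160473 reads (2.20-fold higher) and ND5 37375 and 73405 (2.03-fold higher), while ND4 gave 183578 and 163400 (1.09-fold lower). ATP8 gave 11782 and 5206 reads (2.19-fold lower) beside ATP6 at 293054 and 312282. ATP8 and ATP6 overlap on the mitochondrial genome, so reads may be divided between them. ND2 and ATP8 differed in the same directions in the pituitary (1.52 and -1.71) and the ovary (1.52 and -1.09). The 13 genes together were higher in the other anestrous tissues too. Their summed level went from 41976 RPM in estrus to 50908 in anestrus in the pituitary (median log2 fold 0.50). In the ovary it went from 43478 to 59071 RPM (0.72).

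Of the 220 KEGG pathways in the deposited table with at least 20 genes over a mean of 10, the 8 with the highest medians were nicotine addiction (median log2 fold 0.39, 25 genes), taste transduction (0.37), retrograde endocannabinoid signaling (0.31, 63 genes, 5 of them 2-fold higher), salivary secretion (0.25), synaptic vesicle cycle (0.24), calcium reabsorption regulated by endocrine factors (0.23), cardiac muscle contraction (0.21) and the citrate cycle (0.20). The 8 with the lowest were primary immunodeficiency (-0.47, 22 genes, 4 of them 2-fold lower), malaria (-0.38), Staphylococcus aureus infection (-0.34), African trypanosomiasis (-0.34), intestinal IgA production (-0.30), leishmaniasis (-0.28), prion diseases (-0.26) and protein digestion and absorption (-0.25). They were picked by their medians, so these values are a description only, and pathways share genes.

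The hypothalamus was then set beside the other tissues, each compared within its own pair of libraries. Over the floor of 50, 1.2% of 10720 pituitary genes were 2-fold higher and 1.9% were 2-fold lower, and in the ovary 12.3% of 10902 genes were higher and 7.95% lower. Among the 10100 genes over the floor in both hypothalamus and pituitary, 0.97% were higher and 1.54% lower in the pituitary. Of the 80 of them that were higher in the hypothalamus, 20 were higher in the pituitary too (25% of the hypothalamic and 20.4% of the pituitary list) and 4 were lower. Of the 72 lower in the hypothalamus, 12 were lower in the pituitary (16.7% and 7.69% of the lists) and 0 were higher. Among the 9886 genes over the floor in hypothalamus and ovary, 10.8% were higher and 6.71% lower in the ovary. Of 73 higher in the hypothalamus, 25 were higher and 11 lower in the ovary, and of 86 lower in the hypothalamus, 26 were lower and 16 higher. Across genes the log2 folds of hypothalamus and pituitary had a Pearson r of 0.28 and a Spearman rho of 0.13, and those of hypothalamus and ovary 0.03 and -0.03. Genes are not independent replicates, and the tissues may come from the same sows.

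Genes 2-fold different in the same direction in all 3 tissues included TUBA1C, SMARCC2, SNCG, CSF1R, RAB11FIP5, CPQ and TMP-SLA-2. The mitochondrial genes ND2 and ATP8, given above, were so too. SMARCC2, a subunit of the SWI/SNF remodelling complex, gave 92 and 547 reads in the hypothalamus, with log2 folds of 2.60 there, 3.23 in the pituitary and 2.52 in the ovary. SNCG (gamma-synuclein) gave 2 and 137 reads. NTNG1, GABBR2 and CALB2, by contrast, were within 2-fold in the pituitary (log2 folds -0.60, -0.37 and 0.79), where GABBR2 had a mean of only 30.9. AVP was level in the pituitary (0.11, mean 104), while OXT was lower there too, just under the threshold (-0.93, mean 345).

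**Figure D5:**
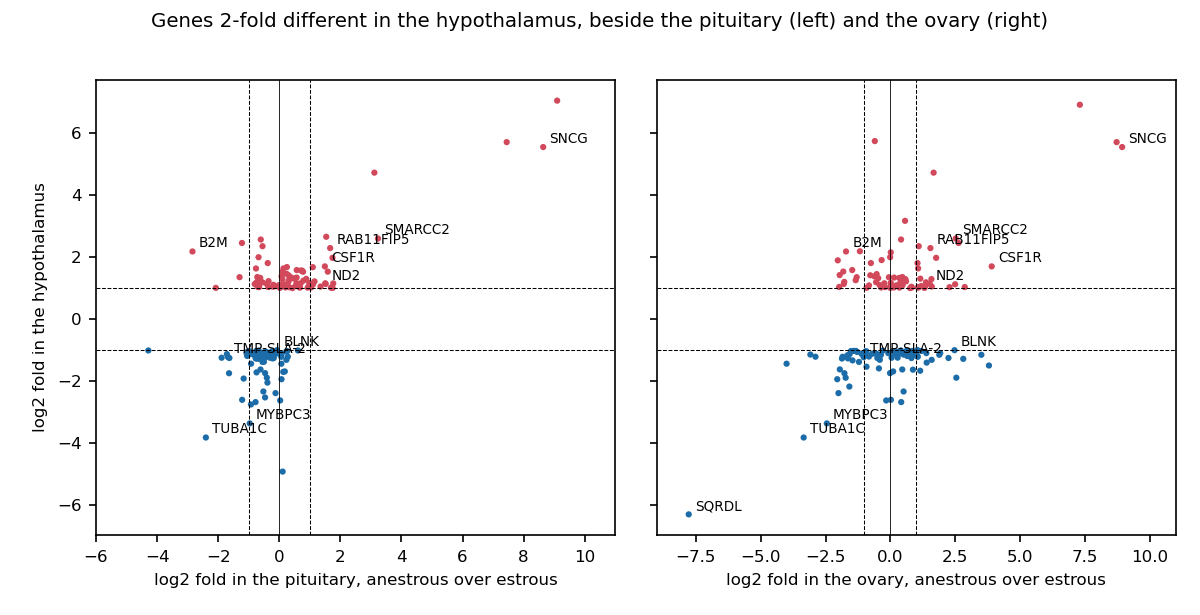
Log2 fold in the hypothalamus (vertical axis) of genes 2-fold different there and over a mean of 50 in both tissues, against their log2 fold in the pituitary (left) and the ovary (right), 1 point per gene. Red points were higher and blue points lower in the anestrous hypothalamus, and dashed lines mark 2-fold. TUBA1C, SMARCC2 and SNCG lie far from 0 in the same direction in each tissue, while B2M was higher in the hypothalamus and lower in both others.

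An adjusted p no greater than 0.05 was given to 118 hypothalamic genes in the authors' deposited table, 75 of them higher and 43 lower. Of the 266 genes at least 2-fold different, 98 were among them, and 45 had an adjusted p of 1. In the authors' deposited table the adjusted p was 2.47e-12 for SLC6A3, 3.04e-14 for NTNG1, 0.000904 for HCRT and 0.00262 for GABRA5. In the same authors' deposited table it was 0.12 for PMCH, 0.495 for TUBA1B and 1 for ND2, although each of them had at least 4420 reads in each library. These p-values compare 2 libraries and do not measure variation between sows.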

How the data were processed

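Each deposited signal is a gene's read count over a size factor of its library, and the authors' p-values sit beside it, per the file headers. DESeq is named per the labels, and TopHat2 2.1.0 per the submitters' processing notes. Genome build, annotation, counter and strand setting are not given in the sources used here, and overlapping genes and close copies are uncertain. RNA was extracted with Trizol and libraries made with a TruSeq kit, per the labels' protocols. Dividing a column by its smallest value above 0 gave whole reads, to within 0.01, for 100% of values. Symbols came from the deposited table and an Ensembl name table (14419 genes). Log2 folds used a pseudocount of 1, which understates differences of genes with few reads, and printed folds are ratios without it. Intervals are exact conditional binomial (Clopper-Pearson, 95%), and 0 reads were set to a floor of 3 reads in that library. Without molecular identifiers, PCR copies are counted as reads.

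Members and lists were chosen with earlier results of these data known. Named were the 30 highest and 30 lowest log2 folds among genes with a symbol over the floor of 50, up to 8 members of each list with the largest differences, any neuropeptide, receptor, steroid receptor or regional factor, the 20 genes with most reads, genes with a mean of at least 1000 and 2-fold different, and genes 2-fold different in a second tissue. Any other gene was chosen after its values were seen, and some genes that the rule names are not reported here. As alternatives, libraries were scaled to equal totals or by edgeR's TMM (trimming 30% of ratios and 5% of levels), and there were a pseudocount of 5, other floors, the authors' adjusted p, and a count test over the 6 libraries with tissue as a block in edgeR 4.0.16 and DESeq2 1.42.0. The counting rule was tested on simulated data.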

Additional observations from a re-analysis of the deposited data

Results flagged for a closer look

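With a mean of at least 200 in both tissues, 8 genes with a symbol were 2-fold different one way in the hypothalamus and 2-fold different the other way in the pituitary or the ovary. Each difference between tissues rests on 1 library per state and was not tested. B2M, the partner chain of class I MHC molecules, had a log2 fold of 2.18 in the hypothalamus, -2.84 in the pituitary and -1.71 in the ovary. RFK, which makes flavin mononucleotide, had 1.13 in the hypothalamus and -1.80 in the ovary. CPXM2 had 1.54 and -1.82, IFT57, an intraflagellar transport gene, 1.26 and -1.34, PLXDC1 2.19 and -1.18, and CACNA1G, the T-type calcium channel gene, 1.42 and -1.96. BLNK, an adaptor of B cells and macrophages, had -1.01 and 2.47, and ARSB, a lysosomal sulfatase gene, -1.03 and 1.19.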

How the results depend on the processing

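With no floor, 845 genes were at least 2-fold higher and 877 lower. With a floor of 200 there were 75 and 29, and 67 and 31 where the authors' adjusted p also had to be 0.05 or less. Equal totals gave 113 and 167, the trimmed mean of log ratios 147 and 120, and a pseudocount of 5 gave 137 and 107. Of 266 genes at 2-fold, 233 kept the call with equal totals. The count test over 6 libraries, which treats tissues as replicates of a state, called 0 genes with edgeR (542 at an unadjusted p under 0.05) and 46 with DESeq2 (556 unadjusted), against 266. The cause of these differences was not tested, beyond the genes each floor and condition admits. Of 194 named genes at 2-fold, 19 fell under it with equal totals and 14 with a pseudocount of 5, and no named gene at 2-fold changed sign under these or the trimmed mean. List medians changed sign for 7 of 45 lists with equal totals and for 6 of 44 with a floor of 200, among them neuropeptide precursors (0.08). No paired analysis was possible because each state has 1 library of the hypothalamus. The tissue block above pairs the states across tissues, not within this one.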

Other observations

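Several gene groups held no 2-fold member in the hypothalamus. Circadian clock genes were above 0 in 12 of 16 (9 with equal totals, median log2 fold 0.18), with DBP at 67 and 100 reads in estrus and anestrus, NR1D1 at 82 and 115 and RORB at 62 and 38. Heat shock genes had a median of 0.09 over 14 genes, with HSPH1 at 6374 and 8796 reads and DNAJB1 at 1627 and 1071. Hypoxia and glycolysis genes had a median of 0.08 over 16, with LDHA at 876 and 648 reads. Serotonin and histamine genes had one of 0.11 over 10, with HDC, the histamine-making enzyme, at 1178 and 891 reads. Thyroid hormone genes had one of 0.07 over 8, with TRHDE, which breaks down TRH, at 89 and 145 reads. With equal library totals the medians of the heat shock, hypoxia and thyroid lists lay at or just under 0 (0.00, -0.01 and -0.02).

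Genes read in the estrous library only were 541, and those read in the anestrous library only were 387. Of these, 8 and 6 had 20 or more reads. Of those with a symbol, NECTIN1, LIPM and PRG4 had 34, 29 and 26 reads in estrus and 0 in anestrus, and GNG13 and FAM163A 29 and 22 reads in anestrus and 0 in estrus. Among growth factor genes, NGFR, the low-affinity neurotrophin receptor, gave 67 and 23 reads, while BDNF gave 312 and 276 and NTRK2, its receptor, 2377 and 2313. CISH and SOCS1, feedback inhibitors of cytokine signalling, gave 35 and 12 and 29 and 13 reads.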
